A study of Homo sapiens with 6 samples.

Results

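Splice-site events with 3 or more choices are exons for which the deposited splicing table lists at least 3 alternative acceptors (the start of the exon) or at least 3 alternative donors (its end). The members were chosen by the measured coverage of each library and by the Control percents: each library scored LOW, OK or SOK for coverage, each held 10 reads or more, and at least 2 sites of the event had a Control mean between 5% and 95%. This left 1523 events with 5697 sites in 1323 genes, of 34943 such events listed, of which 14371 passed the score and the reads. There were 856 acceptor events in 772 genes and 667 donor events in 638 genes, and the table lists 128086 splice-site events in all. Because Control values chose the members, the Control levels below are a description, and a difference between DFMO and Control shares those values.

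All libraries came from SKNBE2, a human neuroblastoma line labelled as MYCN amplified, so the data stand for 1 line. The 3 Control libraries carry no treatment in their labels, and the 3 DFMO libraries came from cells given 250 µM difluoromethylornithine, an inhibitor of ornithine decarboxylase, for 4 days. Stranded mRNA libraries were read in single reads of 100 nt. The labels do not say whether replicates were separate cultures, so the p-values measure only the spread between these libraries, which may be technical. Percents are the share of an event's reads that use a site, differences are in points of that percent, and errors are SD with n = 3 per group.

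Over all classes of event the libraries held 77648922 to 103250467 event reads, and the member events held 214047 to 283462. The shallowest library of a member event had between 25 and 2001 reads, with a median of 67. Over all tested splice sites, events of 2 choices included, pairs of libraries within a group varied 1.99 to 2.23 times as much as counting would give. The first principal component of these sites held 26.4% of the variance and parted Control from DFMO. The second held 20.8% and spread the Control libraries, with replicates 1, 2 and 3 at 48.2, -46.5 and -15.0. All 12 noradrenergic neuroblastoma markers had reads in every library (1982 to 2136 exon event reads in each 1000000 event reads). Against this, 7 mesenchymal markers summed to 10.7 to 14.1, 4 epithelial markers to 0.35 to 1.06 and 4 immune markers to 0.45 to 0.88, with LYZ, KRT8 and KRT18 at 0 in every library.

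The spliceosome joins a donor, marked by GT at the start of the intron, to an acceptor, marked by AG at its end. U1 and then U6 small nuclear RNAs pair with the donor, U2AF binds the acceptor with its polypyrimidine tract, and the exact AG is settled at the second catalytic step, where factors such as SLU7 and PRPF18 act. Neighbouring sites that compete for the same partner add or remove a stretch of exon, which changes the protein by whole amino acids when its length is a multiple of 3 and otherwise shifts the reading frame.

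The sequences below show what the choice adds in events on which the results turn. Each is mRNA sequence from a GENCODE 29 transcript on GRCh38, 5′ to 3′, with the stretch present only in the longer form in capitals and the flanking exon bases in lower case. The first group are acceptors, where the bases to the left belong to the preceding exon. The second group are donors, where the bases to the right belong to the next exon.

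ATG2B: gcagccatgcagGAGaaggaagaagaa
PCNP: cttggatcaagtAAGcctaaagaaact
EIF2D: ggctattgcttgAAGagtatcagctcc
ABLIM1: acaaacagcatgATGCAGctgccttggcag
CIC: tcacctttgaccGTACAGgtacagaagccg
PAXBP1: attcaaGTCAGTCCATCTTGAAGacaaag
HMGN3: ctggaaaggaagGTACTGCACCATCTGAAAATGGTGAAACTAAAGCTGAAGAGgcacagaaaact
HNRNPH3: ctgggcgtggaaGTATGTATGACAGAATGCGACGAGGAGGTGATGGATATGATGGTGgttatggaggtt
GTF3C1: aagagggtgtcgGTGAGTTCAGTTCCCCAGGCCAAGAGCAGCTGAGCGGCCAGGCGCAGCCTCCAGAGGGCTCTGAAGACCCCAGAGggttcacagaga
LARP1: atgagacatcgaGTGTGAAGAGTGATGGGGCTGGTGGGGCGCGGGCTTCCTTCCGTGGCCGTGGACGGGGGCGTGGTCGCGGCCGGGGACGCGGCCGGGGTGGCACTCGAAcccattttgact
LARP7: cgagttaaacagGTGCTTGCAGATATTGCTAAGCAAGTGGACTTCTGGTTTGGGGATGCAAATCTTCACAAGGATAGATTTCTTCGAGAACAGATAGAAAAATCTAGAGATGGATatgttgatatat

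The capitals of the acceptors lie at chr14:96305813-96305815 (ATG2B, minus strand), chr3:101585437-101585439 (PCNP, plus), chr1:206591843-206591845 (EIF2D, minus) and chr10:114448021-114448026 (ABLIM1, minus). Those of the donors lie at chr19:42294299-42294304 (CIC, plus), chr21:32755213-32755229 (PAXBP1, minus), chr6:79202276-79202316 (HMGN3, minus), chr10:68338643-68338687 (HNRNPH3, plus), chr16:27464320-27464394 (GTF3C1, minus), chr5:154793902-154794000 (LARP1, plus) and chr4:112644769-112644871 (LARP7, plus). The stretch between the pair of most used sites could be read from a transcript for 1303 of the 1523 events (85.6%). Of 741 acceptor stretches, 740 ended with AG (99.9%), the pair of bases on which the shorter form's acceptor rests, whereas AG made up 7.73% of all overlapping base pairs in these stretches. The last 3 bases were CAG in 546 and TAG in 92. Of 553 donor stretches, 515 began with GT (93.1%) and 37 with GC (6.69%), against 6.03% and 8.35% of all overlapping base pairs for GT and GC. The 6 bases that CIC adds are repeated at the start of its next exon. The shorter CIC mRNA therefore reads the same whether the upstream donor was used or the downstream donor was joined 6 bases further on, and reads cannot tell these apart. Such a repeat was found in 2 of 114 donor stretches of 12 nt or less (1.75%). Among acceptor stretches of that length, 58 of 281 (20.6%) were repeated at the end of the preceding exon, 1 of them in CIC, and the same limit holds there.

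Most member events listed 3 sites, and most had 2 sites at a Control mean of at least 5%. Of the acceptor events, 481 listed 3 sites, 238 listed 4 and 137 listed 5 or more; of the donor events, 369 listed 3, 173 listed 4 and 125 listed 5 or more. At the median event the pair of most used sites took 99.8% of the acceptor reads and 99.7% of the donor reads. Only 72 acceptor and 85 donor events had 3 or more sites at a Control mean of at least 5%, and 764 acceptor and 574 donor sites had no use in any of the 6 libraries. Of the sites at a mean of 5% or more, GENCODE annotated 81.8% of acceptors and 85.9% of donors, against 11.9% and 14.9% of the sites under 5%.

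The most used acceptor gave neither the shortest nor the longest exon in 52.8% of acceptor events, the longest in 28.2% and the shortest in 19.0%. The most used donor gave the shortest exon more often, in 40.3% of donor events, and the longest in 18.4%. Acceptor pairs were close: the most used sites lay 3 nt apart in 215 events (25.1%), and the median distance was 24 nt. Donor pairs lay 3 nt apart in 10 events (1.499%) and 4 nt apart in 43 (6.45%), with a median of 46 nt. In events of exactly 2 choices that passed the same filters, 3-nt pairs made up 40.3% of 1075 acceptor events, and the median distance was 5 nt for acceptors and 29 nt for donors. No test was made of these differences, which describe the makeup of the table.

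**Figure D1:**
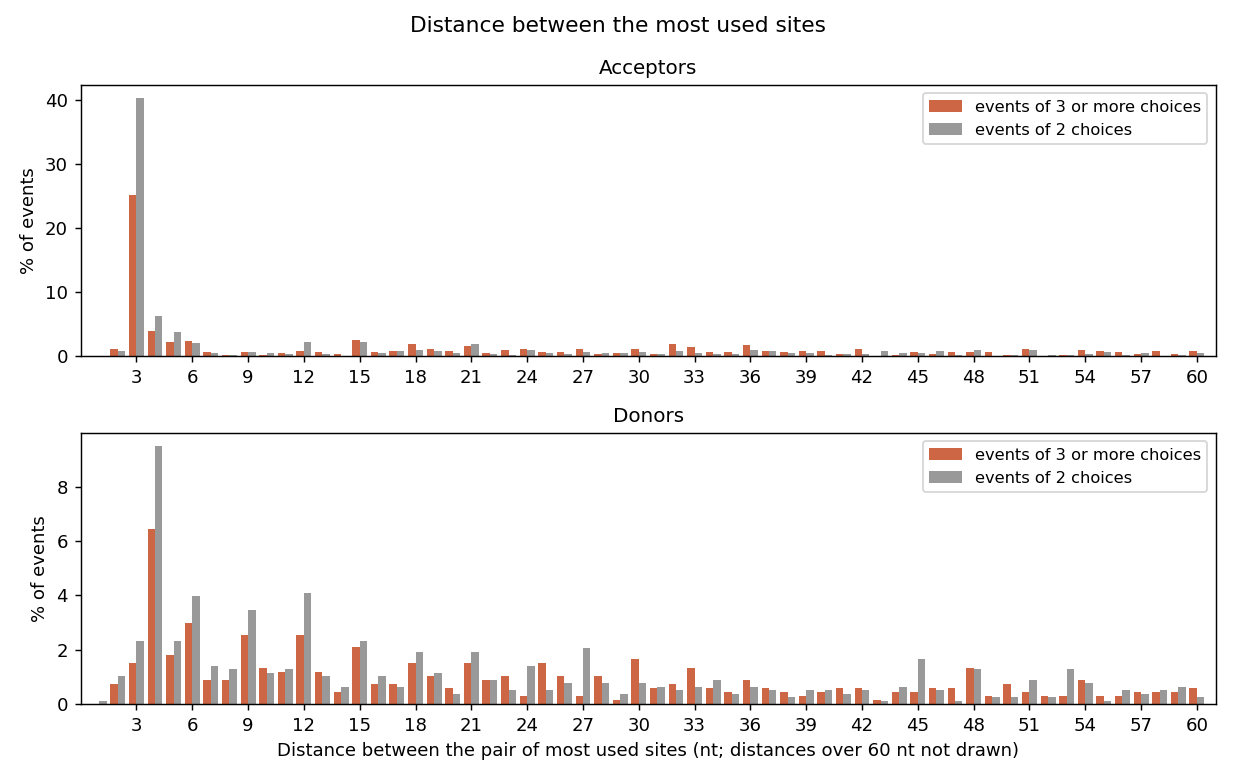
Distance in nt between the pair of most used sites (x axis, up to 60 nt) as a percent of events (y axis), for acceptors above and donors below, with events of 3 or more choices in orange and events of 2 choices in grey. The acceptor peak at 3 nt holds 25.1% of the events of 3 or more choices and 40.3% of the events of 2 choices; the donor peak at 4 nt holds 6.45% and 9.499%.

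Where both most used sites were coding, most distances were multiples of 3. A site counted as coding only inside the coding sequence of a protein-coding transcript. Sites found only in nonsense-mediated decay transcripts had another label. Pairs that shift the frame could thus drop out by the label, and how far this shaped the shares below was not tested. Of 316 acceptor events with both most used sites in coding sequence, 84.8% had a distance that is a multiple of 3, and 77.6% of the 214 with a distance over 3 nt did. For donors this held for 72.6% of 157 events. Where both sites lay in the 5′ UTR, the shares were 45.8% of 48 acceptor events and 30.3% of 122 donor events.

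The comparison of DFMO with Control asked which of these choices differ with the drug. Use of each site was tested with limma on log2 odds over all tested splice sites of its class, and calling a site took an adjusted p below 0.05 together with 10 points of difference or more. Of the 856 acceptor events, 802 had a site that could be tested, and 10 of them (1.25%) had a called site, in 10 genes; over all 2008 tested acceptor events 1.25% were called, and 1.2% of those with 2 choices. Of the 667 donor events, 636 had a tested site and 21 (3.30%) were called, in 21 genes, against 2.14% of all 1492 tested donor events and 1.3% of those with 2 choices. The difference between these shares was not tested. In sites, which mirror each other within an event, 18 of 1657 acceptor sites and 36 of 1348 donor sites were called, against a background of 1.17% and 1.93% of all tested sites.

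The calls rest on a spread shared across sites. In this fit the prior degrees of freedom were infinite at the median site, so a site's own replicate spread counted little. With limma without the variance trend no member site was called (0 of 18 and 0 of 36 calls stayed; the lowest adjusted p of a called site was 0.319 for acceptors and 0.289 for donors), although 128 acceptor and 148 donor sites had an unadjusted p below 0.05. A quasi-binomial model on each site alone also called none, with 94 and 117 sites at an unadjusted p below 0.05. In simulated data of the same size, the fit without the trend recovered none of the changes put in and the quasi-binomial model almost none. These counts of 0 therefore cannot decide whether the calls hold. The simulation gave every site the same excess over counting spread, which is close to what the main fit assumes. It cannot show how the calls fare where spread differs between sites. Leaving out 1 library at a time ended all 10 acceptor calls at least once and left 5 donor events called throughout: HMGN3, HNRNPH3, LARP1, LARP7 and NUF2. Without DFMO replicate 1 the acceptor events called were 2, and without DFMO replicate 2 they were 4. Some of these were newly called, since 9 and 7 of the 10 main acceptor calls ended.

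Differences over the whole set were small. The median size was 3.04 points over tested acceptor sites and 3.41 over donor sites. The total shift of an event, the percent of its reads that changed site, had a median of 3.54 points for acceptor and 4.20 for donor events, and reached 9.86 and 11.8 points at the 90th percentile. Between 2 libraries of the same group the median shift was 4.41 to 5.17 points for acceptors and 4.45 to 5.67 for donors; between a Control and a DFMO library it was 5.09 to 5.65 and 5.41 to 6.20. The groups did not overlap at 259 tested acceptor sites (15.6%) and 247 donor sites (18.3%), where the background was 17.5% and 17.1% of all tested sites.

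**Figure D2:**
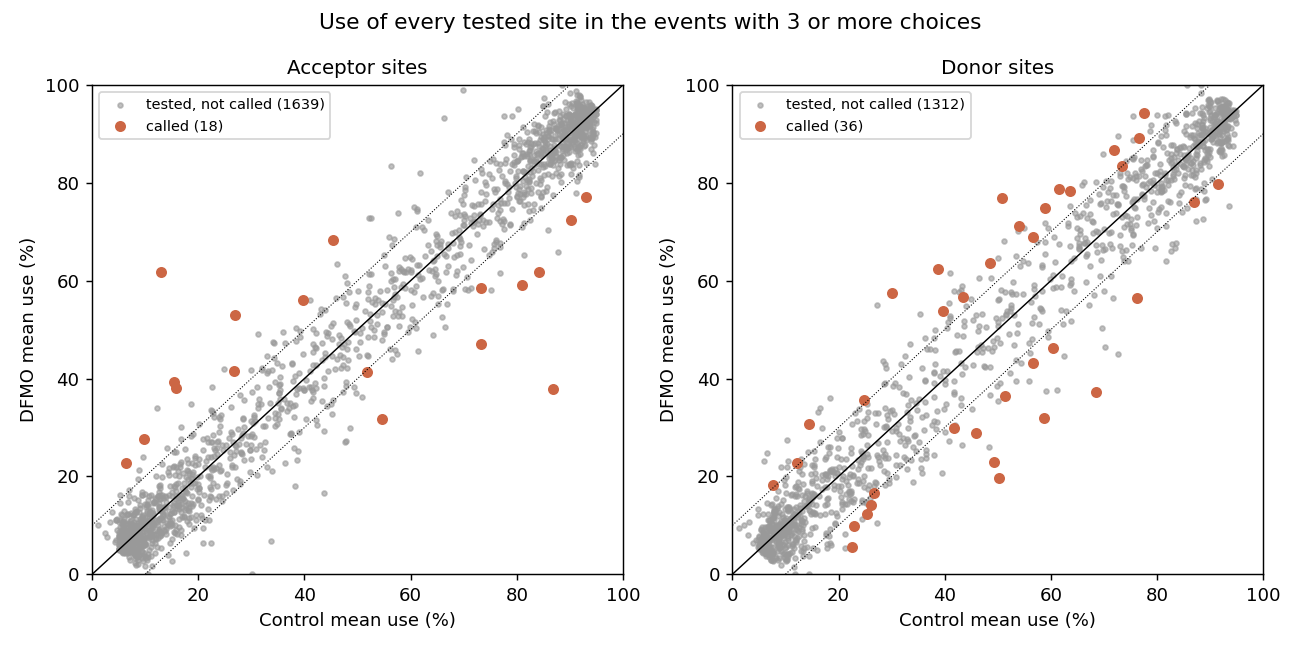
Mean use in DFMO (y axis, %) against mean use in Control (x axis, %) for each tested site of the events with 3 or more choices, acceptors on the left and donors on the right; the solid line marks equal use and the dotted lines 10 points of difference. Called sites (18 and 36, orange) lie outside the dotted lines, and most other sites lie between them.

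By the read-weighted length of the exon, 7 of the 10 called acceptor events shortened and 3 lengthened with DFMO, while 10 of the 21 called donor events lengthened and 11 shortened. Over all tested acceptor events 0.448% were called with a longer and 0.797% with a shorter exon, and over all tested donor events 0.737% and 1.41%. The most used site was another one in DFMO than in Control in 4 called acceptor events, ATG2B, PCNP and RALGDS among them, and in 6 called donor events (CIC, GTF3C1, HMGN3, RBBP8, TRERF1 and the noncoding gene RP11-706O15.5). Over all member events, called or not, it was another one in 27 acceptor and 30 donor events.

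**Figure D3:**
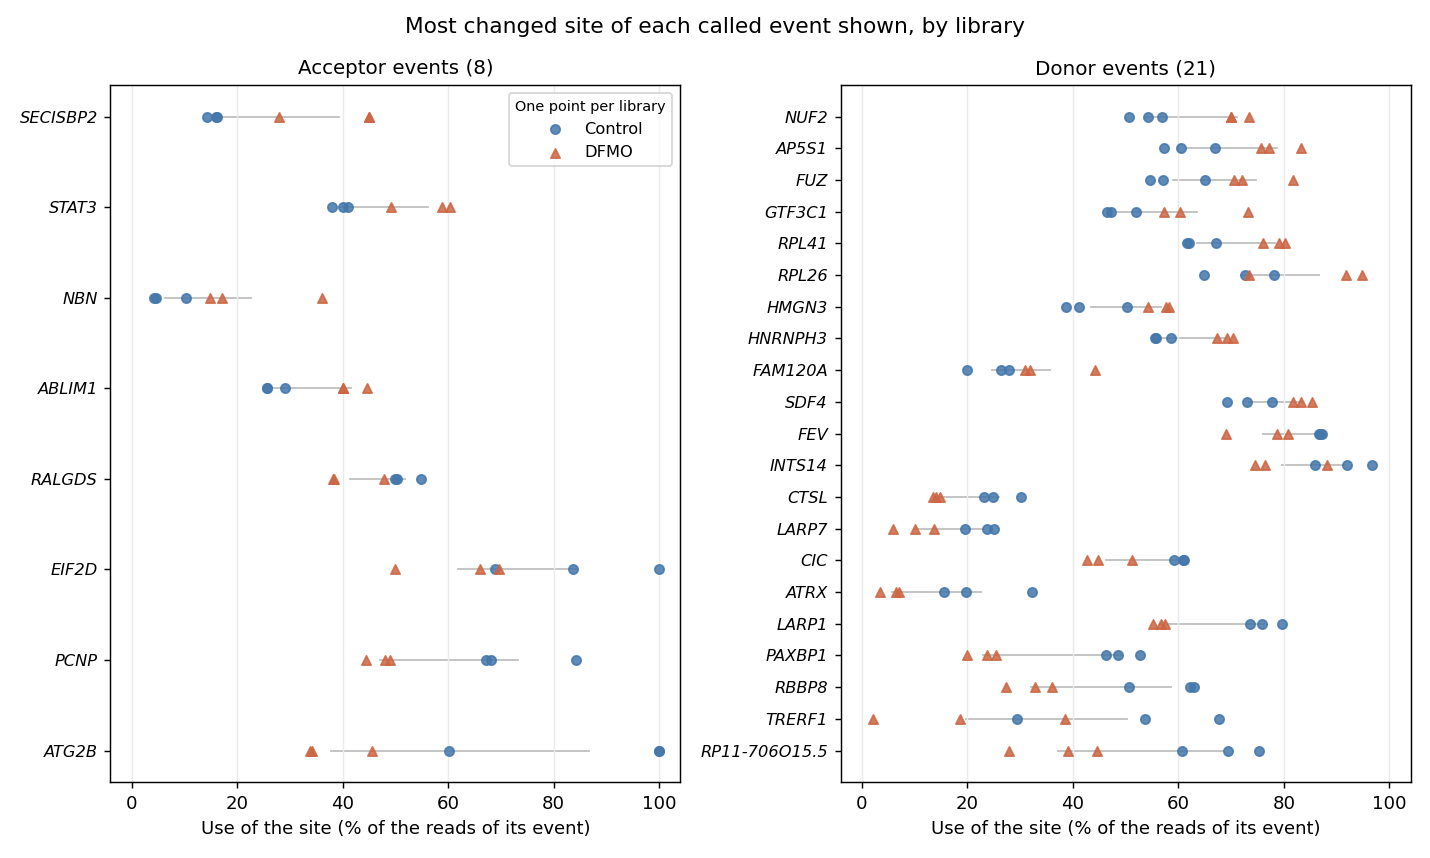
Use of the most changed site of each called event (x axis, % of the event's reads), with 1 point per library (blue circles, Control; orange triangles, DFMO) and a grey line between the group means, for 8 acceptor and 21 donor events. The groups are apart in 25 of the 29 events shown and overlap for EIF2D, INTS14, RPL26 and TRERF1. Over all tested sites the groups are apart at 17.5% of acceptor and 17.1% of donor sites. The sites shown were picked by their difference and adjusted p, so their separation is no further support for the calls.

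The 5 donor events that stayed called without any 1 library are described first. LARP1 binds the 5′ end of mRNAs for ribosomal proteins and other translation factors. Its longest donor, which adds the 99 coding bases shown above, took 79.6%, 73.5% and 75.8% of the reads in Control and 55.1%, 57.5% and 56.7% with DFMO. It fell by 19.8 points (log2 odds -1.31, SE 0.21, adjusted p = 3.30e-07), and the shortest donor, which is not annotated, rose from 14.5% ± 3.59 to 30.8% ± 2.23 (adjusted p = 1.45e-06). A middle donor 21 nt into the stretch had 8.71% ± 0.76 and 12.7% ± 2.23, which did not pass (adjusted p = 0.316). The LARP1 groups were apart at all 3 donors, and the event had 292 to 431 reads per library.

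HNRNPH3, a member of the hnRNP H family of splicing regulators, was the deepest of the called events, with 1281 to 1697 reads. Its longest donor, which adds 45 nt, took 58.6%, 55.8% and 55.6% in Control and 70.4%, 69.1% and 67.4% with DFMO, a rise of 12.3 points (log2 odds 0.77, SE 0.12, adjusted p = 1.07e-07). The donor 45 nt upstream fell from 41.8% ± 1.75 to 29.8% ± 1.77. These 45 bases keep the frame and begin with GTATGT. Without 1 library at a time, the difference stayed between 11.6 and 13.3 points.

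NUF2, a kinetochore protein that holds microtubules in mitosis, chose between 5′ UTR donors 146 nt apart. The longer form took 50.6%, 56.9% and 54.3% in Control and 73.5%, 69.9% and 69.9% with DFMO, so all DFMO libraries lay above all Control libraries (17.2 points, SE of the log2 odds 0.22, adjusted p = 3.08e-04). HMGN3, a nucleosome-binding protein, chose between donors 41 nt apart, which shifts the frame. Its shorter form had 38.7%, 41.1% and 50.3% in Control and 57.6%, 58.3% and 54.3% with DFMO and became the most used (13.4 points, adjusted p = 1.55e-04). Control replicate 3 lay nearest to the DFMO range in HMGN3, and the HMGN family has processed copies in the genome whose reads could be assigned to it. LARP7, which binds and stabilizes the 7SK RNA and was named after its values were seen, lowered a donor of nonsense-mediated decay or other transcripts from 19.5%, 25.1% and 23.8% to 13.8%, 10.1% and 5.94%. It fell by 12.9 points (adjusted p = 6.09e-04), and the coding donor 103 nt further on rose from 76.6% to 89.2%.

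Among called acceptors the largest differences, in ATG2B and PCNP, were at tandem sites 3 nt apart in shallow events. ATG2B carries lipids to the growing autophagosome. The upstream acceptor, which adds the GAG shown above, took 60.2%, 100% and 100% of the reads in Control and 34.2%, 45.6% and 33.8% with DFMO, with 44 to 59 reads per library. It fell by 48.9 points (log2 odds -5.36, SE 1.40, adjusted p = 0.0136). The other acceptor, not annotated, had 38.6%, 0% and 0% in Control, so Control replicate 1 stood nearer to DFMO than to the other Control libraries. Leaving out DFMO replicate 1, 2 or 3 ended the ATG2B call (adjusted p = 0.179, 0.115 and 0.158), as did an offset of 0.1 (adjusted p = 0.191). On the percent scale the upstream ATG2B acceptor had an adjusted p of 0.0782, while the other one stayed called.

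PCNP, a nuclear protein that is a target of ubiquitination, used the unannotated downstream acceptor for 68.1%, 84.2% and 67.2% of reads in Control and 48.0%, 44.4% and 48.9% with DFMO (47 to 73 reads). The fall of 26.1 points (adjusted p = 0.0165) made the annotated acceptor 3 nt upstream the most used. The PCNP call ended without Control replicate 2 (adjusted p = 0.255), DFMO replicate 1 (0.102) or DFMO replicate 2 (0.115), and without the filter on the mean percent (0.0707). In EIF2D, a factor of noncanonical translation initiation and ribosome recycling, the groups overlapped: the annotated acceptor took 100%, 68.9% and 83.6% in Control and 66.0%, 69.5% and 50.0% with DFMO. Its adjusted p was 0.0351, the event was named after its values were seen, and the call ended without DFMO replicate 1 (0.195), 2 (0.251) or 3 (0.231), with an offset of 0.1 (0.360) and on the percent scale (0.496).

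Of the 215 acceptor events whose most used sites lie 3 nt apart, 3 were called. Over all tested acceptor events 1.25% were called, and of the 433 events of 2 choices at this distance 2 were called. The difference between these counts was not tested. The median total shift was 3.02 points in the 215 events, against 3.54 over all acceptor member events. Among 194 such stretches read from a transcript, 129 were CAG, 39 AAG, 14 TAG and 12 GAG. The longer form took a median of 69.6% in Control and 68.1% with DFMO for CAG, 77.2% and 80.5% for AAG, 70.2% and 73.3% for TAG, and 86.2% and 88.6% for GAG.

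Acceptors further apart were called in coding sequence as well. SECISBP2 recruits the selenocysteine machinery to selenoprotein mRNAs. An acceptor 121 nt downstream of its main one rose from 14.3%, 16.2% and 16.0% to 45.1%, 45.0% and 27.9% (23.8 points, adjusted p = 1.67e-03), with DFMO replicate 3 lowest of the DFMO libraries. That call ended without DFMO replicate 1 (adjusted p = 0.0647) or 2 (0.0570).

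ABLIM1, an actin-binding LIM protein, had 250 to 363 reads and 2 acceptors 6 nt apart. The upstream one took 25.6%, 29.1% and 25.6% in Control and 40.0%, 44.6% and 40.0% with DFMO (14.8 points, adjusted p = 2.28e-03), a tight pair of groups; without DFMO replicate 2 the adjusted p was 0.0537. RALGDS, an exchange factor for Ral GTPases, listed 8 acceptors and used 2, which lie 36 nt apart. The upstream one had 50.0%, 54.9% and 50.4% in Control and 38.3%, 38.1% and 47.8% with DFMO (a fall of 10.3 points, adjusted p = 7.37e-03). The RALGDS difference fell under 10 points without Control replicate 2 (-8.74), DFMO replicate 1 (-8.75) or DFMO replicate 2 (-8.66), and the adjusted p was 0.0599 without the filter on the mean percent.

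NBN, a partner of MRE11 and RAD50 in sensing DNA breaks, raised an acceptor 41 nt downstream of the main one from 4.24%, 10.3% and 4.63% to 36.1%, 17.1% and 14.9% (16.3 points, adjusted p = 7.11e-03). DFMO replicate 1 stood far above the other DFMO libraries, and without it the difference was 9.58 points (adjusted p = 0.269); on the percent scale the adjusted p was 0.0878.

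Donors in coding sequence were also called in CIC, PAXBP1, GTF3C1 and ATRX, with 41 to 303 reads per library. CIC, a transcriptional repressor, used the donor that adds 6 nt for 40.9%, 39.0% and 39.2% in Control and 57.3%, 55.2% and 48.8% with DFMO (14.1 points, adjusted p = 0.0169). Within the same gene, 2 acceptor events with sites 3 nt apart differed by 0.77 and 0.03 points (adjusted p = 0.957 and 0.988). The CIC call ended without Control replicate 2 (0.0534), Control replicate 3 (0.0637), DFMO replicate 1 (0.165) or DFMO replicate 2 (0.0991). PAXBP1, a partner of PAX3 and PAX7, lowered its shorter donor from 48.6%, 52.8% and 46.3% to 25.4%, 19.9% and 23.7% (a fall of 26.2 points, adjusted p = 6.22e-03), and only the loss of Control replicate 2 ended the call (adjusted p = 0.0612). The 17 added bases of PAXBP1 shift the frame, and the longer form is annotated in transcripts of nonsense-mediated decay or other type.

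GTF3C1, the largest subunit of the RNA polymerase III factor TFIIIC, raised the donor that drops 75 nt from 47.2%, 52.1% and 46.4% to 60.3%, 73.3% and 57.3% (15.1 points, adjusted p = 0.0253). That call ended without Control replicate 1 (0.0963), Control replicate 3 (0.107) or DFMO replicate 2 (0.381), on the percent scale (0.0643) and without the filter on the mean percent (0.0562). ATRX, a chromatin remodeller and a member of the chromatin list, raised its coding donor from 67.7%, 84.4% and 80.3% to 93.6%, 96.6% and 92.9% (adjusted p = 0.0336), with no overlap. The loss of any of the 6 libraries ended the ATRX call (adjusted p 0.0501 to 0.225), as did the percent scale (0.0669).

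Donors in 5′ UTRs or noncoding RNA were called in RBBP8, RP11-706O15.5 and AP5S1, with 27 to 118 reads per library. RBBP8, also called CtIP, starts the resection of DNA ends. Its donor that adds 81 nt had 62.3%, 62.9% and 50.8% in Control and 32.8%, 36.0% and 27.3% with DFMO, with 44 to 69 reads (a fall of 26.6 points, adjusted p = 0.0147). The call ended without Control replicate 1 (0.0872), Control replicate 2 (0.110), DFMO replicate 1 (0.0537) or DFMO replicate 3 (0.0753). In RP11-706O15.5, a donor that is not annotated had 69.4%, 75.3% and 60.8% in Control and 44.7%, 27.9% and 39.0% with DFMO, with 27 to 47 reads (adjusted p = 0.0176). Its call ended without Control replicate 1 (0.0704), Control replicate 2 (0.143), DFMO replicate 2 (0.126) or DFMO replicate 3 (0.0551). AP5S1, a subunit of an adaptor complex of late endosomes, had 67.0%, 57.3% and 60.6% at its longer donor in Control and 77.1%, 83.3% and 75.8% with DFMO (17.1 points, adjusted p = 0.0413). The loss of any library ended the AP5S1 call (adjusted p 0.0522 to 0.201), as did the percent scale (0.0584) and the absence of the filter on the mean percent (0.0808).

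The rule for named events left out 6 more called donor events, listed here after their values were seen. INTS14, a subunit of the Integrator complex, lowered its main coding donor by 11.9 points (91.6% ± 5.41 to 79.7% ± 7.44, adjusted p = 2.64e-03) with groups that overlapped, and the difference was -9.24 points without Control replicate 3 and -9.26 without DFMO replicate 2; without DFMO replicate 3 its adjusted p was 0.0561, and on the percent scale 0.0882. SDF4, a calcium-binding protein of the Golgi, had 73.4% ± 4.29 and 83.4% ± 1.74 at its shortest donor (adjusted p = 0.0134), with 7.98 points and an adjusted p of 0.137 without Control replicate 1. Its call also ended without Control replicate 2 (9.90 points), DFMO replicate 1 (adjusted p = 0.0542) or DFMO replicate 2 (9.12 points). FAM120A, an RNA-binding scaffold protein, had donors 3 nt apart, and the shorter of them, not annotated, rose by 10.95 points (adjusted p = 0.0398). The annotated coding donor fell by 9.64 points and did not pass (adjusted p = 0.102). The rise was 8.55 points without Control replicate 2, 6.71 without DFMO replicate 2 and 11.8 (adjusted p = 0.0633) without Control replicate 1. The FAM120A call also ended on the percent scale (adjusted p = 0.0882) and without the filter on the mean percent (0.0834). FEV, an ETS transcription factor, lowered its coding donor from 86.9% ± 0.31 to 76.1% ± 6.28 (adjusted p = 0.0123), a difference that was -7.19 points without DFMO replicate 1. RPL26 had 71.9% ± 6.71 and 86.7% ± 11.6 at its shorter 5′ UTR donor, with groups that overlapped and an adjusted p of 1.97e-04; its call ended without Control replicate 1 (0.199) or DFMO replicate 3 (0.0713) and on the percent scale (0.204), and the gene has processed copies. The sixth, CTSL, is described with the events of 3 used sites.

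Events in which 3 or more sites were in use are where more than a pair can compete. Of the 72 acceptor events with 3 or more sites at a Control mean of at least 5%, 1 was called (STAT3), and of the 85 donor events 5 were called (CTSL, FUZ, LARP1, RPL41 and TRERF1), against 1.25% and 2.14% of all tested acceptor and donor events; the difference from these shares was not tested. STAT3 is a transcription factor downstream of cytokine receptors. Its outermost acceptor, 22 nt upstream of the innermost and annotated in the 5′ UTR, rose from 41.1%, 40.0% and 37.9% to 60.3%, 49.1% and 58.9% (16.5 points, adjusted p = 0.0351; 126 to 178 reads). The innermost STAT3 acceptor had 36.25% ± 3.11 and 22.7% ± 2.13 (adjusted p = 0.0750), and the middle one had 24.1% ± 2.91 and 21.2% ± 4.00 (adjusted p = 0.811). The STAT3 call ended without Control replicate 1, 2 or 3 (adjusted p = 0.0607, 0.0970 and 0.143) or DFMO replicate 1 or 3 (0.245 and 0.160), and without the filter on the mean percent (0.150).

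CTSL, a lysosomal protease, used 3 donors of its first exons. The middle one had 24.9%, 30.2% and 23.2% in Control and 14.1%, 14.8% and 13.6% with DFMO and fell by 11.97 points with no overlap (adjusted p = 0.0191), the longest had 40.9% ± 2.88 and 52.7% ± 8.96 (adjusted p = 0.119), and the shortest 32.8% ± 3.20 and 33.1% ± 9.45 (adjusted p = 0.994). The CTSL call ended without Control replicate 1 (0.0534), Control replicate 2 (0.176), DFMO replicate 1 (0.0743) or DFMO replicate 3 (0.0530). FUZ, a planar polarity protein needed for cilia, raised its donor 23 nt beyond the shortest from 57.1%, 65.0% and 54.6% to 72.1%, 81.8% and 70.5% (adjusted p = 0.0217). The FUZ call ended without Control replicate 1 (0.0963), Control replicate 3 (0.137) or DFMO replicate 2 (0.244), and on the percent scale (0.0574).

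TRERF1, a zinc-finger transcription regulator, had donors at 0, 3 and 50 nt in its 5′ UTR, with 44 to 59 reads. The one at 3 nt, not annotated, took 29.4%, 67.7% and 53.8% in Control and 38.5%, 18.6% and 2.22% with DFMO. The groups overlapped and the spread was wide (adjusted p = 9.64e-03), and the call ended without Control replicate 2 (0.179), Control replicate 3 (0.0659) or DFMO replicate 3 (0.177), and on the percent scale (0.263). An acceptor event of TRERF1 with sites 3 nt apart had 56.4% and 83.4% at its coding site and did not pass (adjusted p = 0.126). RPL41 encodes the smallest ribosomal protein and has many processed copies, so its counts are uncertain. Of its 9 listed donors 4 were used, and the one at 64 nt, not annotated, rose from 67.1%, 61.6% and 62.0% to 79.0%, 76.0% and 80.2% (14.8 points, adjusted p = 0.0217). The shortest RPL41 donor had 5.61%, 13.1% and 7.09% in Control and was at 0% in all DFMO libraries, under the 5% mean needed for a test. The RPL41 call ended without Control replicate 2 (0.106), Control replicate 3 (0.0903), DFMO replicate 1 (0.0942) or DFMO replicate 3 (0.0910).

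**Figure D4:**
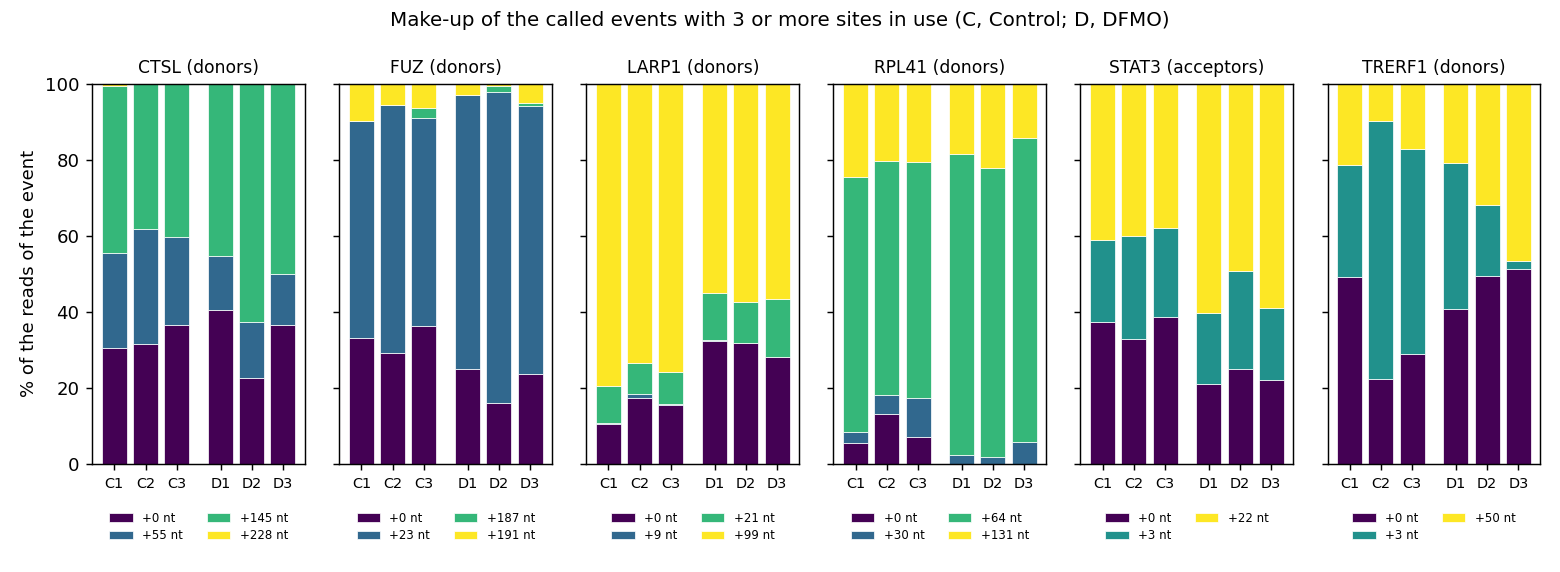
Percent of an event's reads at each site (y axis, stacked, colours from the shortest exon at the bottom to the longest at the top) in the 3 Control (C) and 3 DFMO (D) libraries, for the 6 called events with 3 or more sites at a Control mean of 5% or more; legends give the nt that a site adds to the shortest form. In LARP1 the top segment falls from 76.3% to 56.5% while the bottom one rises from 14.5% to 30.8%, and in STAT3 the top segment rises from 39.65% to 56.1%.

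Of the deepest events, BEX3 and NUCKS1 passed the adjusted p at differences under 10 points, and those of CNBP, GAPDH and BSG did not pass. BEX3, an X-linked gene with 1572 to 2147 reads, chose between 5′ UTR acceptors 47 nt apart. The upstream one took 23.2%, 22.6% and 25.8% in Control and 32.2%, 31.6% and 32.6% with DFMO. The 8.27 points between the means passed the adjusted p (2.14e-06) but not the 10-point minimum. NUCKS1, a chromatin protein with 1932 to 2724 reads, had 82.2% ± 2.05 and 85.8% ± 1.09 at the annotated one of a pair of acceptors 3 nt apart (adjusted p = 0.0369), again with no overlap. CNBP, a zinc-finger nucleic-acid-binding protein, had 69.2% ± 3.95 and 65.4% ± 1.45 at an acceptor with 2001 to 2755 reads (adjusted p = 0.114) and 38.2% ± 1.75 and 42.9% ± 1.54 at a donor 21 nt beyond the shortest (adjusted p = 0.119). Of the other deep donors, GAPDH had 94.96% and 94.8% at its shortest 5′ UTR donor (adjusted p = 0.954), and BSG, a membrane glycoprotein, had 93.3% and 95.1% at its main donor (adjusted p = 0.0905). In all, 36 acceptor and 53 donor sites of the member events passed the adjusted p, of which 18 and 36 reached 10 points.

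The events with the most choices listed 9 sites and, apart from RPL41, had no called site. They were 5 acceptor events, of which TAOK2, SAFB and SUPT7L had the most reads, and 3 donor events. SAFB, a scaffold attachment factor, used 2 acceptors 3 nt apart, with 64.5% ± 1.42 and 61.03% ± 2.38 at the downstream one (adjusted p = 0.659). TAOK2 had 91.9% and 95.7% (adjusted p = 0.605) and SUPT7L 84.5% and 86.6% (adjusted p = 0.972) at their main acceptors. SGPL1 had 91.8% and 89.3% (adjusted p = 0.888) and NOP56 82.0% and 76.4% (adjusted p = 0.765) at their main donors. By number of listed sites, called acceptor events were 5 of 481 with 3, 4 of 238 with 4 and 1 of 137 with 5 or more, and called donor events were 9 of 369, 8 of 173 and 4 of 125, against 1.25% and 2.14% of all tested acceptor and donor events. No test was made between these numbers of sites.

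Genes of the lists used here held 81 member events in 64 genes, of which 2 were called: HNRNPH3 among 14 events of SR proteins and hnRNPs, and ATRX among 21 events of chromatin and transcription genes. None was called among 5 events of acceptor recognition genes, 1 of second-step genes, 10 of donor recognition genes, 4 of polyamine genes, 2 of neuronal genes, 15 of translation and ribosome genes and 9 of cell cycle and DNA repair genes. Over all tested events 1.25% of acceptor and 2.14% of donor events were called, so at these list sizes the counts do not set any list apart. At the edge of the rule, a UROD acceptor and a CEP192 donor lay just inside, each with a Control mean of 5% (3.18% and 1.11% with DFMO), and a TCF25 acceptor and an HNRNPK donor just outside, each at 4.997% (7.75% and 2.91% with DFMO).

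Whether the choice moved as a whole toward one end of the exon was measured by a relative position, 0 for the site of the shortest exon and 1 for that of the longest, weighted by use and averaged over events. For 663 donor events it was 0.389, 0.388 and 0.389 in Control and 0.383, 0.380 and 0.378 with DFMO, so every DFMO library lay below every Control library, toward shorter exons. The difference of -0.008 had an exact permutation p of 0.1, two-sided, the smallest that 3 libraries against 3 can give, and an adjusted p of 0.2 over the 2 classes. For 848 acceptor events the values were 0.518, 0.520 and 0.522 in Control and 0.518, 0.518 and 0.518 with DFMO, with an exact permutation p of 0.2. The Control and DFMO ranges of the acceptor position met, with the lowest Control library 0.5182 and the highest DFMO library 0.5183. The Control percents that chose these events also enter this test. With DFMO, 80 donor and 131 acceptor member events had only 1 site at a mean of 5% or more, which the rule does not allow in Control. How far this choice of events moves the position was not tested.

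**Figure D5:**
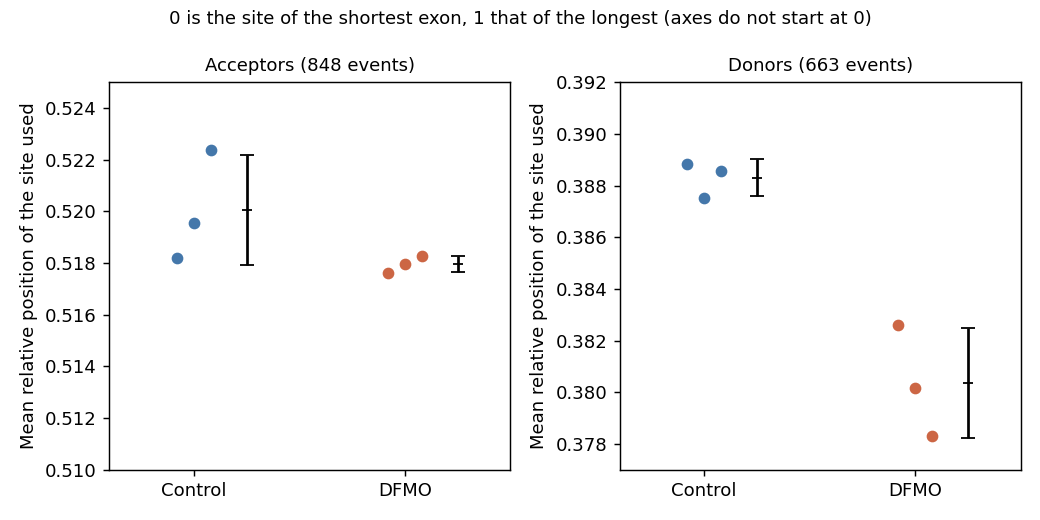
Mean relative position of the site used (y axis, 0 for the shortest and 1 for the longest exon; axes do not start at 0) in each Control and DFMO library, over 848 acceptor and 663 donor events, with the group mean and SD beside the points. The donor values are 0.388 ± 0.001 in Control and 0.380 ± 0.002 with DFMO and do not overlap.

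The genes that act on site choice were followed with a junction-read proxy of expression, the mean log2 of 1 plus event reads, scaled to 1000000 event reads per library, over a gene's exon events. Of 64 measured genes for acceptor recognition, second-step acceptor choice and donor recognition, 14 rose, 13 fell and 37 did not pass an adjusted p of 0.05, against 20.7% that rose and 25.1% that fell among all 9232 genes. Their median difference was -0.005 on the log2 scale, against -0.010 over all genes. LUC7L, a partner of U1 at donors, had 2.68, 2.60 and 2.70 in Control and 2.29, 2.32 and 2.23 with DFMO (log2 -0.38, SE 0.04, adjusted p = 1.14e-04). RBM17, a splicing factor that acts at acceptors, had 2.31 ± 0.02 and 2.05 ± 0.05 (adjusted p = 3.68e-04), and U2AF2, the subunit that binds the polypyrimidine tract, had 4.41 ± 0.01 and 4.25 ± 0.03 (adjusted p = 9.41e-04). NCBP2, of the cap-binding complex, rose by 0.26 (adjusted p = 1.74e-03) and SF3A2, of U2, by 0.20 (adjusted p = 3.73e-03). The second-step factors SLU7 and PRPF18 had differences of -0.05 and -0.002 (adjusted p = 0.247 and 0.970). Among the genes with a called event, the proxy of EIF2D was higher by 0.33 (adjusted p = 1.02e-04) and of ATRX by 0.26 (adjusted p = 2.11e-04), and that of LARP7 lower by 0.33 (log2 -0.33, adjusted p = 1.06e-04). These examples were picked after their values were seen, and whether these levels bear on the site choices was not tested.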

How the data were processed

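Percent values of splicing, with a quality text beside each (unit other), were deposited by the authors for 721551 events in 6 libraries; per the submitters' processing notes the build was GRCh38. The sources used here do not give the aligner, the quantifier or the handling of reads that match several places. Read numbers were taken from the deposited quality text, from which 100% of the deposited percents of splice-site rows were recomputed within 0.5 points. An ATG2B acceptor with 1.14% of 55 reads in Control replicate 1 held only a fraction of a read, so these numbers are not all raw counts. The match is therefore no independent check of them, and the counting spread in the fits rests on them. Sites entered the tests with at least 10 reads in each library, a score of LOW or better and a mean percent of 5 to 95 over the 6 libraries. Log2 odds (an offset of 0.5 on the reads for and against a site) went into limma 3.58.1, run in R 4.3.3 (robust empirical Bayes, variance trend on the expected counting variance, two-sided), with Benjamini-Hochberg adjustment over 4015 acceptor and 3010 donor sites. The junction-read proxy used limma with a mean-variance trend. The fit was tested on simulated data. Named events were, per class, up to 10 called events without overlap by size, called events with another most used site, the 3 with most choices, the 3 deepest, called events in listed genes, and those at the Control threshold. Members, lists and tests were chosen with earlier results of these data known. Sequences and annotation came from GENCODE 29. In 7 event names 2 sets of sites are held and in 5 a listed site is missing; these events were left out of the position measure. The alternatives were other offsets, scales, filters, size minimums, models and adjustments, a replicate block, and leaving out each library. The counts of called acceptor events include 2 events that are not reported here.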

Additional observations from a re-analysis of the deposited data

How the results depend on the processing

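None of the 54 called site differences changed sign under the alternatives tried, which was largely fixed in advance. Other models, offsets, scales, adjustments and size minimums leave the difference in mean percents as it is. At the 16 acceptor and 31 donor called sites whose groups do not overlap, leaving out 1 library cannot reverse it. Of 24 named sites that were not called, 4 changed sign without 1 library, each with an adjusted p over 0.7: the differences without 1 library ran from -3.19 to 6.17 points for SUPT7L, from -3.20 to 3.16 for the CIC acceptors that differed by 0.03, from -3.35 to 5.65 for the shortest CTSL donor and from -0.80 to 0.29 for GAPDH. BEX3 was called with a 5-point minimum (-8.31). The main counts were 10 acceptor and 21 donor events, with 18 and 36 called sites. Limma without the variance trend and the quasi-binomial model gave 0 for each of these counts. They had 128 and 148, and 94 and 117, sites at an unadjusted p below 0.05. The counts thus depend on the model, and calls were made only with the variance trend. Both models recovered almost none of the changes put into simulated data, in which every site had the same excess over counting spread. These counts of 0 therefore cannot decide whether the calls hold where spread differs between sites. A 5-point minimum gave 19 acceptor events and 33 acceptor sites. A 15-point minimum gave 10 donor events and 17 donor sites, and the percent scale 13 donor events and 22 donor sites. Leaving out 1 library gave 2 to 10 acceptor events, 4 to 18 acceptor sites, 13 to 16 donor events and 22 to 28 donor sites. These counts include newly called events. Of the main calls, each left-out library ended 2 to 9 of the 10 acceptor events and 8 to 11 of the 21 donor events. Calls whose groups do not overlap, and calls without the events of mixed or missing sites, were added after the data had been seen and stayed within 1.5 times of the main counts. With the replicate number as a block, the replicate block fit gave 10 and 21 events and 18 and 36 sites. The deviations of same-numbered libraries had correlations of -0.053, -0.0002 and 0.002, so no shared deviation was seen at these sites. These values do not tell whether such libraries shared a culture or a preparation. The position differences ranged from -0.003 to -0.001 for acceptors and from -0.009 to -0.007 for donors without 1 library, and 14 and 13 splicing factors rose and fell with the block. Depth limits the smaller differences, since the shallowest library of a member event had a median of 67 reads. In simulated data most changes of 10 points were missed, but a call there also took a measured difference of 10 points or more. That loss is therefore not a measure of depth alone.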
